A study of Mus musculus with 24 samples.

Results

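The nuclear genes of the mitochondrial respiratory chain were followed through the lungs of bleomycin-treated and saline-treated mice. The members were every probe set whose single current gene symbol starts with Nduf, Sdh (a to d), Uqcr, Cox4 to Cox8 or Atp5, and there were 98 such probe sets, for 71 genes, among 12422 probe sets. A probe set is a group of short probes read together as 1 value, so a gene can have several. The choice used names only and no measured value. Complex I had 38 probe sets for 29 genes, complex II 4 for 4 genes, complex III 7 for 7 genes, complex IV 23 for 15 genes and complex V 22 for 14 genes. A further 4 probe sets were for the complex I assembly factors Ndufaf1 and Ndufaf4. A filter on dim values (an intensity above 226 on at least 2 arrays) passed 80 members, for 66 genes, and the other 18 were not tested. Another 10 probe sets carried several gene names and were left out, so that Cox7c, Ndufs5, Ndufs6, Ndufb4 and Ndufa11 were not analysed here, nor were Cox4i2, Atp5if1, Uqcrfs1 and Atp5b, to which no single-name probe set was matched.

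The study measured total RNA from murine lung on 24 Affymetrix arrays. Mice of the inbred strains C57BL/6J and BALB/c received bleomycin at 1.5 U per kg, or saline, by the intratracheal route, and lungs were taken at 24 h, 72 h or 14 d. Each of the 12 combinations of strain, treatment and time had 2 arrays, called a and b here. The labels give no sex or age and no genetic change, and nothing in them states that a and b are 2 animals, so p-values measure only the spread between these arrays, which may be technical. The series asks, by its title, how inherited differences bear on who develops lung fibrosis, and bleomycin is the usual agent for causing that scarring in mice.

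Several arrays stand apart or go against their labels. H2-Ea, a class II gene that C57BL/6 mice do not express, read 89.5 and 48.3 on the arrays titled BALB/c saline 72 h and 4821 and 3622 on those titled C57BL/6J saline 72 h. The other C57BL/6J arrays lay at 25.6 to 166 and the other BALB/c arrays at 2917 to 6068, so both pairs opposed their strain label. The descriptions also disagree with the titles for BALB/c saline 72 h (bleomycin), BALB/c saline 24 h (bleomycin or saline) and BALB/c bleomycin 24 h (several times), and the titles were followed. The brightest probe set on the C57BL/6J saline 24 h arrays read 78641 and 43230, against 6888 to 21462 on the other 22 arrays, and their titles carry another suffix. Many results that rest on these 6 saline arrays are given again without them, each strain's saline 14 d arrays then serving as control. Others are given as labelled only, among them Cox8b and the calls of cell markers and of genes around the chain. The 2 arrays of a group correlated at r = 0.959 to 0.985 over probe sets, with a median absolute difference of 0.14 to 0.26 on the log2 scale.

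The respiratory chain consists of large protein complexes in the inner mitochondrial membrane. Complex I, the NADH dehydrogenase, and complex II, succinate dehydrogenase, feed electrons to ubiquinone, complex III passes them to cytochrome c, complex IV reduces oxygen with them, and complex V uses the resulting proton gradient to make ATP. Most subunits are made in nearly every cell, but some complex IV subunits have tissue-restricted forms. Those set apart here are Cox6a2, Cox7a1 and Cox8b, which belong to heart and skeletal muscle, and Cox6b2, which belongs to testis. Cox7a1 and Cox8b belong also to brown fat. Cox8c was not set apart.

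Upstream sequence is shown for Cox6b2, Cox7a1, Cox6a1, Ndufs3 and Ndufb6, picked by hand among genes with a motif match, from RefSeq on the build GRCm38.p6. The table held 58 of the 71 member genes, and Cox6a2 was not among them. The 250 bases before each annotated start were searched on both strands. The letters GCGCA followed directly by TGCGC, bound by NRF1, a factor known for respiratory genes, were found in 4 of 58 member genes (6.9%) against 0.877% of all 27025 genes in the table. The ETS family letters CCGGAAG were found in 12 of 58 (20.7%) against 7.83%, and the CCAAT box letters CCAAT in 24 of 58 (41.4%) against 37.5%. Motif letters are in capitals, read 5′ to 3′ on the strand of the gene, and ATTGG and CTTCCGG are CCAAT and CCGGAAG on the other strand.
Cox6b2, minus strand, chr7:4753095-4753144, bases 50 to 1 before the start: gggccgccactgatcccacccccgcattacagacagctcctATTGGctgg
Cox7a1, plus strand, chr7:30184074-30184123, bases 97 to 48 before the start: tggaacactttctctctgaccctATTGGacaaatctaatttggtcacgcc
Cox6a1, minus strand, chr5:115349091-115349140, bases 182 to 133 before the start: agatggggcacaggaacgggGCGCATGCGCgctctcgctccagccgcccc
Ndufs3, minus strand, chr2:90904722-90904771, bases 50 to 1 before the start: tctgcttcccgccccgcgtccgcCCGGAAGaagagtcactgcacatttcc
Ndufb6, minus strand, chr4:40279622-40279671, bases 250 to 201 before the start: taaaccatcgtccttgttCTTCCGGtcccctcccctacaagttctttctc
Cox6b2 and Cox7a1 hold the CCAAT letters and neither of the other 2 motifs, while the widely expressed Cox6a1 holds all 3. Of the 4 genes with the NRF1 letters (Atp5g2, Atp5k, Cox6a1 and Ndufaf4), 0 passed the test in any comparison, and of the 12 with the ETS letters, 3 did (Atp5l, Ndufb6 and Ndufs3). Among all 58 genes, 18 passed the test in at least 1 comparison. A match is a description of the letters and not of binding.

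Across the 12 groups most members stayed within a narrow range. The range of the group means on the log2 scale had a median of 0.73 over the 80 tested members, with quartiles of 0.57 and 0.95, from 0.28 for Cox7a2l to 2.5 for Cox6b2. The 3 widest ranges all belonged to probe sets for Cox6b2. Between probe sets intensities depend on the probes, so levels are compared only within a probe set. Differences below are on the scale log2(intensity + 92), and "rose" and "fell" mean an adjusted p under 0.05 in limma, adjusted over 8710 probe sets (Benjamini-Hochberg, two-sided). Of the 80 tested members, 28 (35%) passed in at least 1 of 12 comparisons and 52 in none, beside 36.0% of all 8710 tested probe sets, and by complex these 28 were 9 of complex I, 1 of complex II, 3 of complex III, 8 of complex IV and 7 of complex V.

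**Figure D1:**
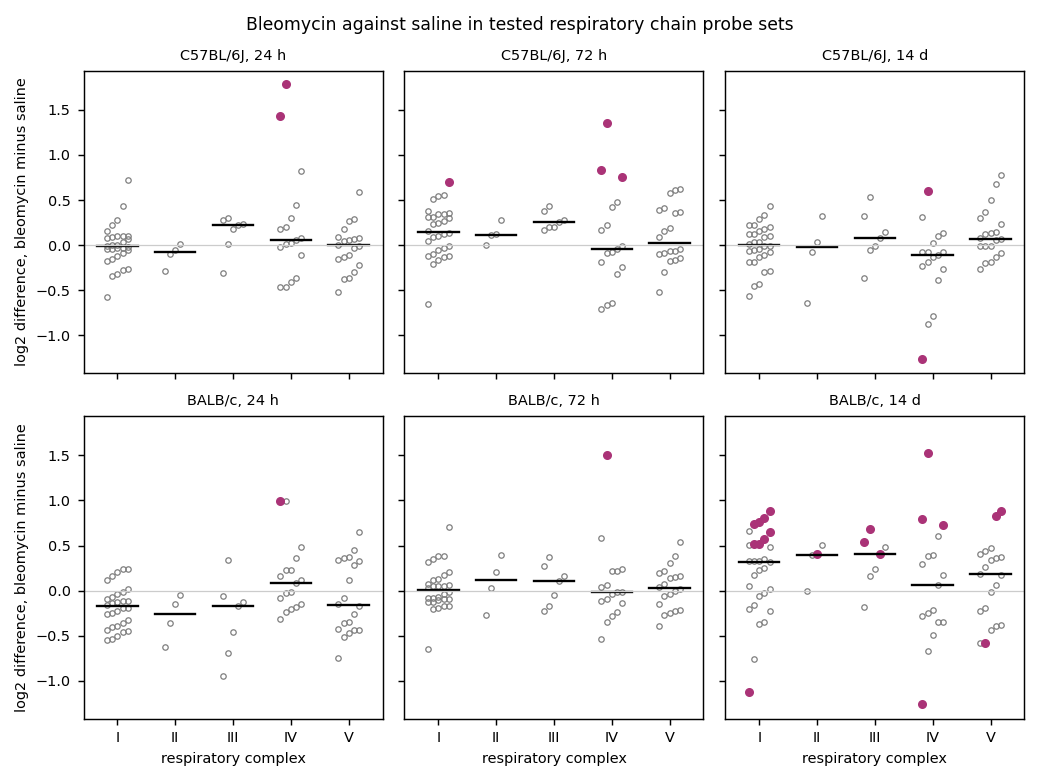
Log2 difference between bleomycin and saline (vertical axis) for each tested probe set of complexes I to V (horizontal axis), in the 6 pairs of groups with 2 arrays each. Filled points passed the test, open points did not, and bars are medians. The called points of C57BL/6J at 24 h are the 2 Cox6b2 probe sets at 1.43 and 1.78, and BALB/c at 14 d has the most, 20.

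Cox6b2, the testis form of a small complex IV subunit, had the largest bleomycin differences of any member. The array has 3 probe sets for it, called by their endings _f, _i and _r. On the _f probe set C57BL/6J lungs read 952 and 768 after saline at 24 h and 2527 and 2395 after bleomycin. At 72 h they read 999.5 and 1127 after saline and 1744 and 2198 after bleomycin. At 14 d they were back together, at 875 and 960.1 after saline and 778 and 877 after bleomycin. The groups were apart at 24 h and 72 h and overlapped at 14 d. The bleomycin difference was 1.43 (SE 0.16, limma adjusted p = 7.1e-05) at 24 h and 0.83 (SE 0.16, adjusted p = 0.00349) at 72 h, and -0.14 (SE 0.16, adjusted p = 0.674) at 14 d. Among bleomycin lungs alone, with no saline array in the contrast, it fell by 1.48 from 24 h to 14 d (SE 0.16, adjusted p = 3.14e-05).

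In BALB/c the same probe set read 949 and 687 after saline and 1593 and 1808 after bleomycin at 24 h. The values were 1029.9 and 908 against 1482 and 1513 at 72 h, and 605 and 603 against 1036 and 1198 at 14 d. Every bleomycin array lay above both saline arrays of its time. The difference was 0.99 (SE 0.16, adjusted p = 0.0149) at 24 h, 0.59 (SE 0.16, adjusted p = 0.0942) at 72 h and 0.79 (SE 0.16, adjusted p = 0.00469) at 14 d. Without the 6 doubted arrays it was 1.34 at 24 h and 1.02 at 72 h in C57BL/6J, and 0.99 and 1.19 in BALB/c, and all 4 passed. The BALB/c comparison at 24 h uses none of the 6 arrays, so its 0.99 is the same value and no check. At 72 h the BALB/c control was then saline 14 d, the lowest group mean of this probe set.

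The _i probe set for Cox6b2 gave the same time course in C57BL/6J. It read 732 and 341 after saline and 2529.9 and 1519 after bleomycin at 24 h (1.78, SE 0.33, adjusted p = 0.0068), and 489 and 441 against 1736 and 1024 at 72 h (1.36, SE 0.33, adjusted p = 0.0164). Without the 6 doubted arrays these were 1.58 at 24 h (adjusted p = 0.0133) and 1.05 at 72 h (adjusted p = 0.0616), and the 72 h call was also lost without any of 3 single arrays (adjusted p up to 0.219). At 14 d it read 684 and 520.3 after saline and 253 and 319 after bleomycin (-0.87, SE 0.33, adjusted p = 0.115). Its BALB/c arrays stayed apart at 14 d, with 314 and 234 after saline and 777 and 1165 after bleomycin (1.52, SE 0.33, adjusted p = 0.00685). The BALB/c difference was 1.50 (adjusted p = 0.0235) at 72 h and 0.998 (adjusted p = 0.182) at 24 h. The 72 h value rests on doubted arrays: it was 1.90 (adjusted p = 0.00308) without them and 1.28 (adjusted p = 0.227) with the saline 72 h strain labels exchanged, and the loss of any of 3 arrays ended the call (adjusted p up to 0.318). The 1.90 was against BALB/c saline 14 d, the lowest group mean of this probe set. Among C57BL/6J bleomycin lungs the probe set fell by 2.45 between 24 h and 14 d (SE 0.33, adjusted p = 0.000255), whereas in BALB/c the change over the same span was -0.01 (SE 0.33, adjusted p = 0.994).

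**Figure D2:**
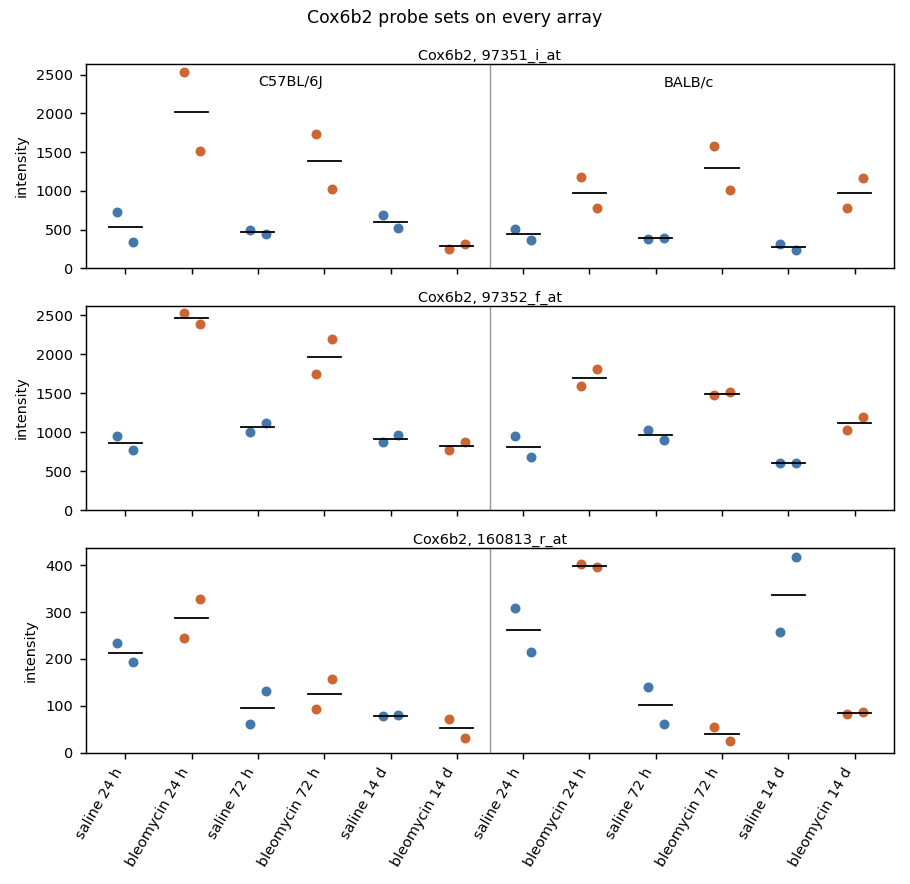
Intensity (vertical axis, linear, from 0) of the 3 Cox6b2 probe sets on all 24 arrays by strain, treatment and time. Points are arrays, blue after saline and orange after bleomycin, and bars are means of 2. The C57BL/6J bleomycin group at 24 h has the highest mean on the _f and _i probe sets, and the strain's bleomycin arrays at 14 d overlap saline on _f and lie under it on _i, while the _r probe set follows another order.

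At 14 d the bleomycin difference itself differed by strain: on the _i probe set the value in C57BL/6J minus that in BALB/c was -2.39 (SE 0.46, adjusted p = 0.00785) and on the _f probe set -0.93 (SE 0.22, adjusted p = 0.0237). The value for the _i probe set passed in all alternative settings run and without any single array (highest adjusted p = 0.0424). The same test at 24 h gave 0.44 (SE 0.22, adjusted p = 0.557) on the _f probe set and 0.78 (SE 0.46, adjusted p = 0.625) on the _i probe set, so no strain difference was detected there. Of the other calls for these 2 probe sets, the one for the _f probe set in C57BL/6J at 24 h held without any single array, with adjusted p at most 0.00318. The one for the _i probe set in that comparison was lost without bleomycin array a (adjusted p = 0.171) or saline array b, and both BALB/c calls at 14 d were lost without bleomycin array b (adjusted p = 0.067 and 0.102), that on the _i probe set also without saline array b, and both with BALB/c saline 24 h as the control (adjusted p = 0.122 and 0.0789). The strain difference on the _f probe set was lost without any of 5 arrays (adjusted p up to 0.0874), with array weights and with that control (0.141).

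The _r probe set did not follow the others, with r = 0.03 and 0.11 against them over 24 arrays. It read 193 to 403 on all 8 arrays of 24 h, and 258 and 418 on the BALB/c saline 14 d arrays, against 23.7 to 158 on the other 14 arrays. At 24 h both bleomycin arrays lay above both saline arrays in each strain. The 24 h means after bleomycin and saline were 286.7 and 213.7 in C57BL/6J and 399.6 and 262.1 in BALB/c. At 72 h they were 125.4 and 96.15 in C57BL/6J and 39.49 and 100.8 in BALB/c. No bleomycin difference of this probe set passed at 24 h or 72 h. The probe set fell in BALB/c at 14 d (-1.26, SE 0.28, adjusted p = 0.00823) and in both strains from 24 h to 14 d after bleomycin (-1.40 and -1.48, adjusted p = 0.00449 and 0.00587). Affymetrix uses the endings _f, _i and _r for probe sets that could not meet the usual rules on unique probes, so none of the 3 is a standard probe set for the gene. Of the 6 male germ cell markers on the array, Prm1, Prm2 and Ldhc, the protamines and the sperm lactate dehydrogenase, stayed at 5.71 to 43.6, 4.1 to 96.9 and 1.8 to 10.7. Tnp1, a sperm transition protein read by another _r probe set, was the brightest of the 6, at 324 to 1559, and it had r = 0.84 with the _r probe set. The summed germ cell markers were highest in the BALB/c bleomycin 24 h group (1117 and 1789) and lowest in BALB/c bleomycin 72 h (597 and 447), which is not the order of the other 2 Cox6b2 probe sets.

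The probe sets most like the _f probe set over the 24 arrays, by Pearson r, were Ei24 (0.88), the Cox6b2 _i probe set (0.88), Ccng1 (0.86), Zfp688 (0.84), Usp18 (0.84), Tap1 (0.81), Gm9706 (0.81) and Ifit1 (0.81). Those most like the _i probe set were the _f probe set, Ei24 (0.85), Usp18 (0.83), Ccng1 (0.82), Ifit1 (0.82), Gm9706 (0.80), Tuft1 (0.80) and Irf9 (0.80). For the _r probe set they were Prrc2a, Sf1, Col9a3, Cdon, Ncam1, Ptprn, Tnp1 and Rest, at 0.84 to 0.87, and this list shares no gene with the other 2. The widely expressed partner Cox6b1 lay between 283 and 903 on the 24 arrays and passed the test in 0 of the 12 comparisons.

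Among the muscle isoforms Cox6a2, the heart and skeletal muscle form of subunit 6a, showed the clearest change. It read 3739 and 2552 in C57BL/6J after saline at 14 d and 1023 and 1477 after bleomycin, and the 2 saline values were the highest of the 24 arrays. It fell by 1.27 on the log2 scale (SE 0.20, adjusted p = 0.00142), with adjusted p at most 0.0393 without any single array. At 24 h C57BL/6J read 1677 and 1268 after saline and 1043 and 1106 after bleomycin (-0.41, SE 0.20, adjusted p = 0.357), and at 72 h 1833 and 2216 against 1338 and 1173 (-0.65, SE 0.20, adjusted p = 0.0621). All 3 differences pointed down with the saline arrays above the bleomycin arrays. With saline 14 d as the control for every time they were -1.45 at 24 h (adjusted p = 0.00212) and -1.24 at 72 h, both called. That control is the 2 highest arrays again, so these calls add no support to the one at 14 d. The bleomycin 14 d arrays overlapped the saline 24 h arrays, which are among the doubted ones. Another control for C57BL/6J at 14 d was not tested.

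The BALB/c arrays of Cox6a2 lay closer together and changed order with time. They read 1896 and 1502 after saline against 1474 and 1475 after bleomycin at 24 h, 1790.0 and 1616 against 2030.2 and 1952 at 72 h, and 2017 and 1858 against 1790.2 and 1380.2 at 14 d. Saline was above bleomycin at 24 h and 14 d and below it at 72 h. None of these differences passed, at -0.18, 0.22 and -0.29 (SE 0.20, adjusted p = 0.715, 0.8 and 0.367). The strain difference at 14 d was -0.98 (SE 0.28, adjusted p = 0.0432) and is close to the threshold, since the loss of any of 16 arrays or quantile normalization (adjusted p = 0.0734) ended it. The non-muscle partner Cox6a1, 3815 to 12411 over the arrays and among the 3 brightest members, passed in 0 of 12 comparisons.

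Cox7a1, the muscle form of subunit 7a, was lower in C57BL/6J than in BALB/c lungs after bleomycin. The C57BL/6J bleomycin arrays read 85.2 and 89.7 at 24 h, 48.9 and 32.2 at 72 h, and 39.7 and 61.2 at 14 d. The BALB/c bleomycin arrays read 160.2 and 178 at 24 h, 131 and 151 at 72 h, and 204 and 221 at 14 d. No C57BL/6J array reached any BALB/c array, and the difference over the 3 times was -0.82 (SE 0.15, adjusted p = 0.00196), with adjusted p at most 0.008 without any single array. These levels are dim: the probe set was tested because the saline 24 h arrays a of C57BL/6J and BALB/c (229 and 293) passed the filter. Within C57BL/6J the bleomycin differences were -0.46, -0.66 and -0.78 at 24 h, 72 h and 14 d and did not pass (SE 0.27, adjusted p = 0.462, 0.161 and 0.0809). Without the 6 doubted arrays Cox7a1 did fall at 72 h. The means were then 153.1 after saline, from the 14 d arrays, and 40.55 after bleomycin. The non-muscle form Cox7a2 ran from 4040.0 to 6063 and was called in 0 of 12.

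Cox6a2 was also lower in C57BL/6J than in BALB/c after bleomycin (-0.46, SE 0.12, adjusted p = 0.0149), a call that ended without C57BL/6J bleomycin 14 d array a (adjusted p = 0.0546). Both isoforms thus read lower in the bleomycin lungs of C57BL/6J. In this comparison 3 members were higher and 2 lower, 6.25% of 80, beside 11.7% of all tested probe sets, and the higher members were Cox5b (0.31), Atp5mpl (0.40) and Atp5l (0.49), the last 2 small complex V subunits.

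Cox8b, the muscle and brown fat form of subunit 8, passed in 0 of the 12 comparisons on its tested probe set. Its C57BL/6J arrays read 239 to 766 and its BALB/c arrays 365 to 768. The largest difference was 0.83 (SE 0.25, adjusted p = 0.0953) in C57BL/6J at 24 h, where saline read 239 and 324 and bleomycin 541 and 591. Those saline arrays are among the doubted ones. The non-muscle Cox8a was dim on every array, at 22.4 to 101, and was not tested, and neither was the core subunit Cox5a, whose brighter probe set read 28.9 to 218.

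The sum of muscle markers was lower after bleomycin in C57BL/6J at 14 d, where Cox6a2 fell, and also at 72 h. The summed intensity of 18 heart and skeletal muscle markers was 18663 and 18418 after saline and 9059 and 11858 after bleomycin at 14 d in C57BL/6J. In BALB/c at 14 d it was 19377 and 18457 after saline and 15594 and 16771 after bleomycin. In C57BL/6J at 72 h it was 17651 and 19645 after saline, on doubted arrays, and 11980.5 and 8911 after bleomycin. Of the 15 tested markers, 7 fell in C57BL/6J at 14 d: the atrial light chains Myl7 (-1.36) and Myl4 (-1.09), the heavy chain Myh6 (-1.09), the troponin Tnni3 (-1.08), the actin Actc1 (-0.75), myoglobin Mb (-1.21) and the muscle LIM protein Csrp3 (-1.81). The background of lower calls in that comparison was 4.32%. Not every marker of the list went down there. Des read 476 and 627 after saline and 839 and 649 after bleomycin. Ckm (74 and 116, then 94 and 241) and Sln (45 and 217, then 210 and 152) overlapped. In BALB/c at 14 d 1 fell, Tnnc1. In C57BL/6J at 72 h as labelled Myh6 (-1.5), Myl4 (-1.5), Tnnc1 (-1.24), Myl7 (-1.07), Tnni3 (-0.98) and Tnnt2 (-0.69) fell, beside 6.61% of all tested probe sets called. Cox7a1 and Cox6a2 were lower in C57BL/6J than in BALB/c after bleomycin. In that comparison Myh6 (-1.23), Myl4 (-1.09), Csrp3 (-1.09), Tnni3 (-0.88), Myl7 (-0.83), Tnnc1 (-0.81) and Tnnt2 (-0.48) were lower too, beside 11.7% called. Other cell markers also changed in C57BL/6J at 14 d: of 5 endothelial markers Tie1 (-1.06) and Tek (-0.79) fell, and of 6 leukocyte markers the macrophage gene Cd68 rose (1.54). The brighter Cox8b probe set did not follow the muscle sum at 14 d in C57BL/6J, with 304 and 386 after saline and 247 and 391 after bleomycin. Cox7a1 passed in 0 of the 3 bleomycin and saline comparisons of that strain as labelled, but it fell at 72 h without the doubted arrays. Over all arrays Cox6a2 had r = 0.81 with Myl7 and Cox7a1 r = 0.79 with Tnni3, and Cox6a2 with Cox7a1 r = 0.51. The ventricular light chains Myl2 (8.31 to 56.7) and Myl3 (3.66 to 115) were dim throughout, as was the brown fat gene Ucp1 (26.2 to 128). In whole lung, fewer cells of a type and less RNA per cell cannot be told apart, and the part of the muscle cells in the isoform values was not tested.

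**Figure D3:**
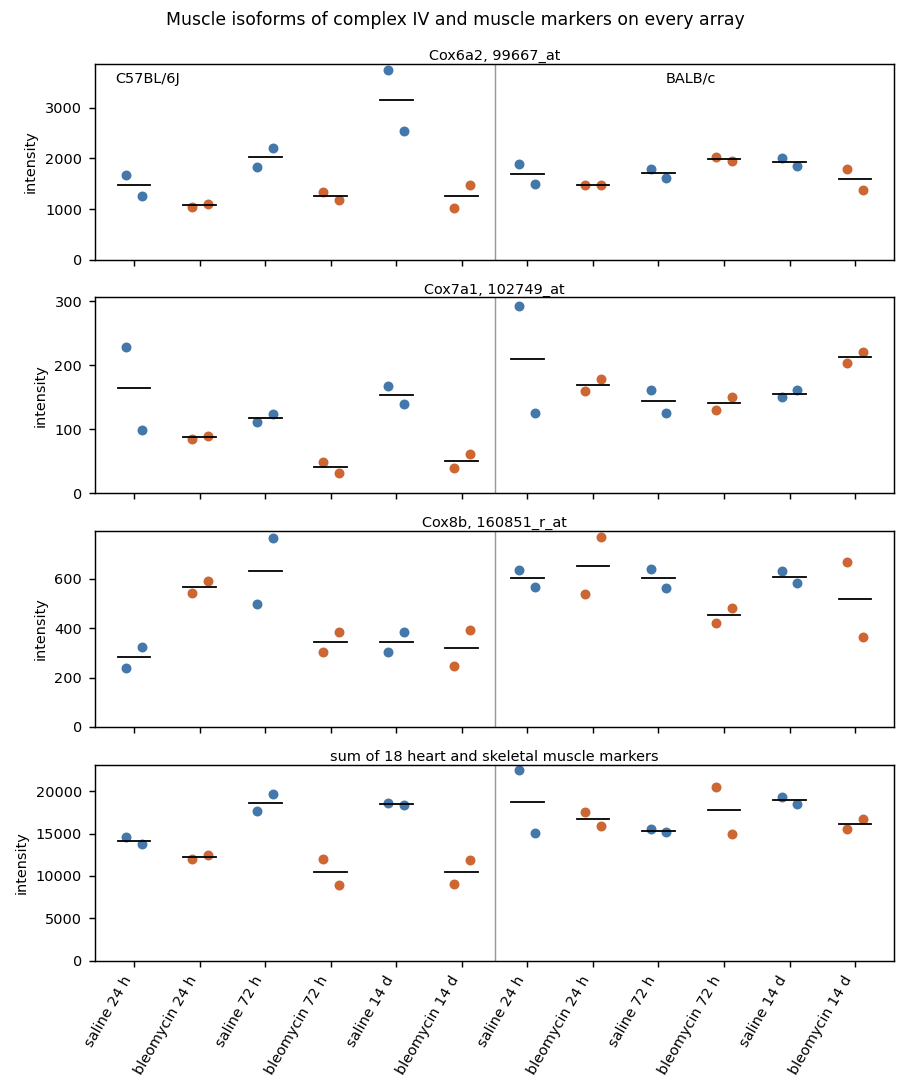
Intensity (vertical axis, linear, from 0) of Cox6a2, Cox7a1 and Cox8b and the summed intensity of 18 muscle markers on all 24 arrays by strain, treatment and time. Points are arrays, blue after saline and orange after bleomycin, and bars are means of 2. Cox6a2 and the muscle sum are both high in C57BL/6J saline 14 d and low in the C57BL/6J bleomycin groups. The Cox6a2 peak has no match in the sum. Mean sums are 18541 in C57BL/6J saline 14 d and 18917 in BALB/c saline 14 d, where Cox6a2 has means of 3145 and 1938.

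The other probe sets most like Cox6a2 were Tmpo (0.81), Icam2 (0.80), Dhrs3 (0.79), Septin4 (0.79), Sipa1l2 (0.78), Inpp5b (0.77) and Aldh3a2 (0.77). For Cox7a1 they were Fam32a (0.81), Irx3 (0.79), Pdlim3 (0.79), Stmn2 (0.79), Sox18 (0.78), Adcy9 (0.76) and Trbv1 (0.76). For Cox8b they were Kcnk7 (0.85), Sbno1 (0.83), Tfcp2 (0.82), Hrc (0.82), Ifnab (0.82), Bad (0.80), Tsn (0.79) and an Atp5d probe set (0.79). These r values are Pearson correlations over the same 24 arrays and describe likeness only.

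Turning from the isoforms to the complexes, the medians by complex moved by at most 0.26 in 5 of the 6 bleomycin and saline pairs as labelled. Complex IV includes its tissue-restricted forms here. In C57BL/6J the medians of complexes I to V were -0.01, -0.08, 0.22, 0.06 and -0.00 at 24 h. They were 0.15, 0.11, 0.25, -0.04 and 0.02 at 72 h and 0.00, -0.02, 0.08, -0.11 and 0.07 at 14 d. Without the doubted arrays the C57BL/6J medians at 24 h were -0.05, -0.24, -0.01, 0.12 and 0.01, so that complex III went from 0.22 to -0.01. At 72 h complexes I, II and III were then at 0.02, -0.12 and 0.04, and complex II turned sign. In BALB/c the medians as labelled were -0.17, -0.26, -0.17, 0.09 and -0.16 at 24 h and 0.00, 0.12, 0.11, -0.02 and 0.03 at 72 h. The BALB/c medians at 72 h also depended on the doubted arrays, since without them they were 0.30, 0.36, 0.44, 0.04 and 0.09.

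Counts of called members were correspondingly low. In C57BL/6J 2 of 80 rose at 24 h (2.5%, beside 2.23% of all tested probe sets), 4 rose at 72 h (5%, beside 6.61%), and 1 rose and 1 fell at 14 d (2.5%, beside 7.43%). In BALB/c 1 rose at 24 h (1.25%, beside 0.218%) and 1 at 72 h (1.25%, beside 1.32%), both Cox6b2. These shares lie below or near the background except in BALB/c at 24 h, where the count is 1. Leaving out C57BL/6J bleomycin 14 d array b raised the count of that strain at 14 d, and the background of that refit is not given here. Without the 6 arrays, BALB/c at 72 h had 10 members higher and 1 lower (background 10.9%), against the same saline 14 d arrays that serve as the control at 14 d. Among them were Ndufa5 (0.84), Ndufb9 (0.84), Ndufab1 (0.74), Sdhc (0.43) and Atp5d (0.69 and 0.68).

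Cox5b, a widely expressed complex IV subunit, was called in C57BL/6J at the later times. It read 1994 and 1843 after saline and 3059.5 and 3552 after bleomycin at 72 h (0.75, SE 0.15, adjusted p = 0.00445), and 2236 and 2424 against 3916 and 3269.5 at 14 d (0.60, SE 0.15, adjusted p = 0.0207). At 24 h the values overlapped, with 2067 and 2751 after saline and 2538 and 2519.8 after bleomycin. The 72 h call ended when the strain labels of the saline 72 h arrays were exchanged (0.35, adjusted p = 0.248) or the 6 arrays were left out (0.49, adjusted p = 0.0601). The 14 d call ended without bleomycin 14 d array a (adjusted p = 0.229). In BALB/c Cox5b read 2406 and 2719 after saline against 2503 and 2459 after bleomycin at 72 h, and 2212 and 2354 against 3251 and 2816 at 14 d (0.39, SE 0.15, adjusted p = 0.0885). The strain difference at 72 h was 0.80 (SE 0.21, adjusted p = 0.0479), the 1 call of that comparison (1.25%, beside 3.08%), and it was -0.00 (adjusted p = 1.0) with the saline 72 h labels exchanged.

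Complex I had 1 call in these 5 pairs, Ndufb6, an accessory subunit of the membrane arm, in C57BL/6J at 72 h. It read 2531 and 2097 after saline and 3801 and 3785 after bleomycin (0.70, SE 0.18, adjusted p = 0.0281). The call ended without the 6 arrays (adjusted p = 0.573) and with exchanged labels (adjusted p = 0.0849), and the C57BL/6J saline 14 d arrays stood higher, at 3257 and 3433.

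BALB/c at 14 d had the most called members as labelled. There 17 of 80 members rose and 3 fell, 25% beside 13.3% of all tested probe sets, of which 7.9% were higher and 5.4% lower. Over tested probe sets of like intensity (573 to 3137, the middle of the members' range) 32.5% of 40 members and 15.7% of 4078 probe sets passed. The medians of complexes I to V were 0.32, 0.40, 0.40, 0.06 and 0.18, beside 0.04 for all tested probe sets. For complexes I to III these are close to the medians at 72 h without the doubted arrays, which use the same saline 14 d arrays as control. The called members were 8 higher and 1 lower of 30 in complex I, 1 higher of 4 in complex II, 3 higher of 7 in complex III, 3 higher and 1 lower of 17 in complex IV, and 2 higher and 1 lower of 20 in complex V. The count of 20 rests on few arrays, and most of it was lost without bleomycin array b. The share of all tested probe sets called in that refit is not given here. A loss particular to these members thus cannot be told from one shared by the whole array.

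In complex I the 3 called subunits with the smallest p were the accessory subunits Ndufb9 and Ndufb11, of the membrane arm, and Ndufa6. Ndufb9 read 1195 and 1523 after saline and 2184 and 2998 after bleomycin (0.88, SE 0.18, adjusted p = 0.00499). Ndufb11 read 2106 and 2336 after saline and 3268 and 3427 after bleomycin (0.57, SE 0.13, adjusted p = 0.00867). Ndufa6 read 599 and 583 after saline and 919.7 and 1225 after bleomycin (0.76, SE 0.17, adjusted p = 0.0101). For all 3 the saline 14 d arrays were the lowest of the strain's saline arrays, the saline 24 h arrays reading 2256 and 2069.6 for Ndufb9, 3258 and 2877 for Ndufb11, and 1119 and 830.0 for Ndufa6.

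The other called subunits of complex I are named here after their values were seen. Ndufs3, a core subunit of the matrix arm, read 1939.6 and 2088 after saline and 2775 and 3085 after bleomycin (0.52, SE 0.12, adjusted p = 0.0116). Ndufab1, the mitochondrial acyl carrier protein, read 1235 and 1119.8 after saline and 1745 and 2598 after bleomycin (0.81). Ndufb8 read 1265 and 1494 against 2024 and 2734 (0.74). The saline 14 d arrays of Ndufs3 were nearer to those of saline 24 h (2159.7 and 2415), though below both. Ndufab1 and Ndufb8 had 2028 and 1758, and 2050.1 and 1789, at 24 h. With BALB/c saline 24 h as the control the calls of Ndufs3, Ndufab1 and Ndufb8 ended (limma adjusted p = 0.101, 0.708 and 0.429). Ndufb2 (0.51) and Ndufb6 (0.65) also rose, with saline and bleomycin arrays apart. Ndufa10, an accessory subunit, went the other way, at 1021 and 804 after saline and 331 and 405 after bleomycin (-1.12, adjusted p = 0.0175). The core subunits Ndufs1 (1183 to 1910.4 over all arrays) and Ndufv1 (4479.7 to 7552) passed in no comparison, at 0.23 (adjusted p = 0.299) and -0.34 (adjusted p = 0.213) in this one.

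Complexes II and III gave the highest medians but few probe sets. Sdhc, a membrane anchor of succinate dehydrogenase, read 2648 and 2695 after saline and 3533 and 3585 after bleomycin (0.40, limma adjusted p = 0.0388). The arrays did not overlap. The Sdhc call ended without the 6 doubted arrays (adjusted p = 0.0569) and with BALB/c saline 24 h, at a mean of 3465, as the control (adjusted p = 0.899). The catalytic subunits Sdha, 717 and 732 against 595 and 878 (-0.00, adjusted p = 0.998), and Sdhb, 1846 and 1799 against 2589.8 and 2268 (0.39, adjusted p = 0.0697), did not pass. In complex III the core protein Uqcrc1 read 2894 and 2871 after saline and 3851 and 3826 after bleomycin (0.40). Uqcr10 read 2546 and 1808 against 3715 and 3302 (0.68), and Uqcrb 2256 and 2421 against 2860.5 and 4133 (0.54, adjusted p = 0.0427). The core protein Uqcrc2 did not go with them, at 3034 and 3304 after saline and 2616 and 2933 after bleomycin (-0.19, SE 0.14, adjusted p = 0.408).

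Complexes IV and V were mixed. Beside Cox6b2, Cox4i1, the main form of subunit 4, rose on 1 probe set, from 444 and 243 to 624 and 596 (0.73, adjusted p = 0.0337), but its other probe set passed in no comparison and had r = -0.18 with it. In complex V Atp5d, the delta subunit of the catalytic head, rose on the first of its probe sets from 412 and 382 to 776 and 846 (0.89, SE 0.14, adjusted p = 0.00107). On the second it rose from 407 and 490.2 to 871 and 864 (0.83, SE 0.20, adjusted p = 0.0115). The other 2 tested Atp5d probe sets were at -0.22 and -0.38 (adjusted p = 0.556 and 0.302), so the gene's probe sets disagree. Atp5a1, the alpha subunit of the catalytic head, fell from 7434 and 7492 to 5673 and 4338 (-0.58, SE 0.16, adjusted p = 0.0225).

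**Figure D4:**
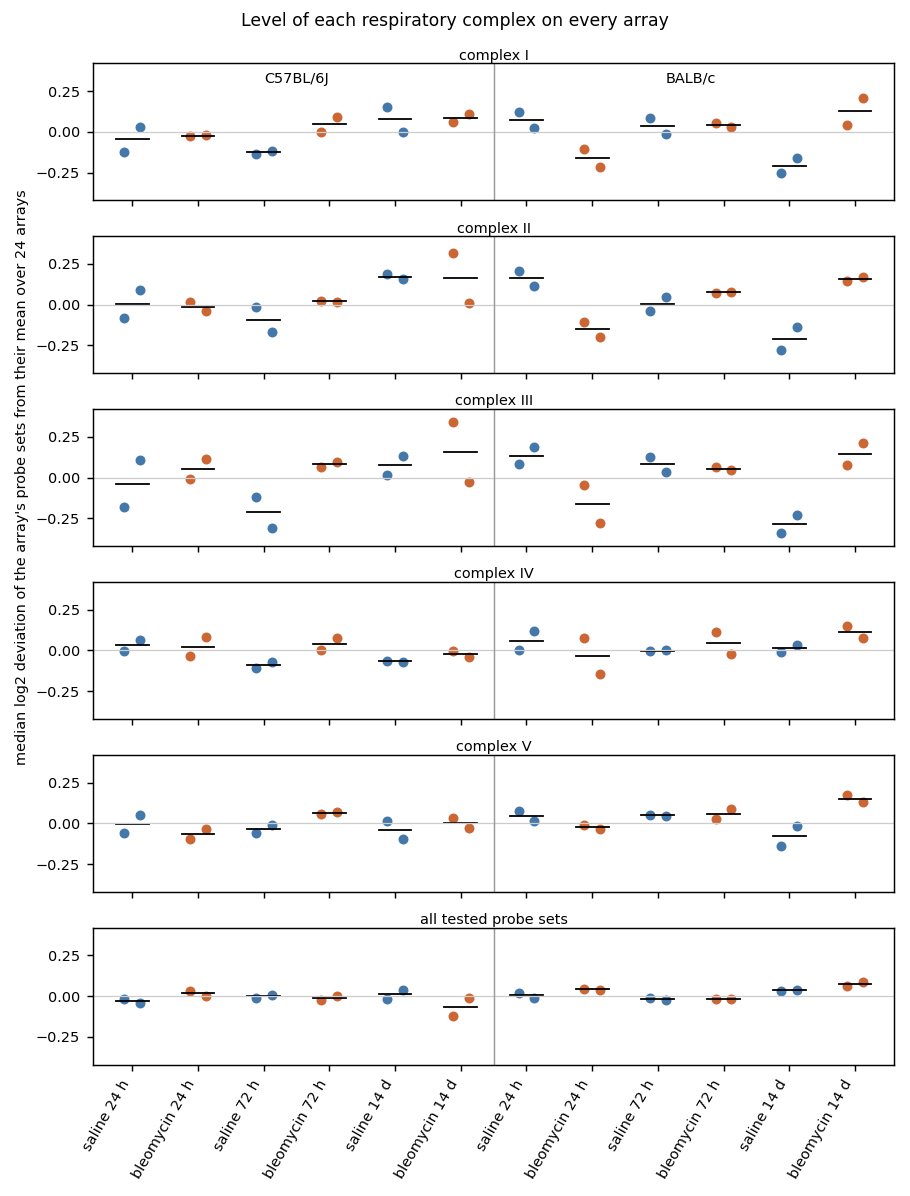
Median deviation of each array's tested probe sets from their mean over 24 arrays (vertical axis, log2) for complexes I to V, without the tissue-restricted isoforms, and for all tested probe sets. Points are arrays, blue after saline and orange after bleomycin, and bars are means of 2. Complexes I, II and III are at -0.14 or lower on both BALB/c saline 14 d arrays and above 0 on both BALB/c bleomycin 14 d arrays.

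The level of complexes I to III on the BALB/c saline 14 d arrays enters this comparison. The median deviation from the mean of all arrays was -0.25, -0.28 and -0.34 for complexes I, II and III on saline array a and -0.16, -0.14 and -0.23 on array b. On the bleomycin 14 d arrays it was 0.04, 0.15 and 0.08 on a and 0.21, 0.17 and 0.22 on b, and on the BALB/c saline 24 h arrays 0.12, 0.21 and 0.09 on a and 0.02, 0.12 and 0.19 on b. The saline 14 d arrays were thus lower, and the bleomycin 14 d arrays level with saline 24 h or above. All tested probe sets together stayed within -0.12 to 0.08 on every array.

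With BALB/c saline 24 h as the control, chosen after these values were seen, the medians of complexes I to V were 0.05, 0.01, -0.06, 0.01 and 0.04. In that setting 2 of 80 members were higher and 2 lower (5%, beside 5.79%): Uqcrc2 (0.77, adjusted p = 0.00543) and Cox7b (0.62) were higher, and Atp5a1 (-0.62) and the Cox6b2 _r probe set (-0.996) lower. Of these 4, the last 2 were also among the 20 calls against saline 14 d. With saline 24 h and 14 d together as the control the medians were 0.12, 0.20, 0.27, 0.05 and 0.12, and 9 were higher and 6 lower (18.8%, beside 13.1%). The rise of complexes I to III was therefore not seen against every control of this strain, and Ndufb6 (-0.11, adjusted p = 0.781) and Uqcr10 (-0.06, adjusted p = 0.892) turned sign against saline 24 h. That control has limits of its own. The descriptions of the BALB/c saline 24 h arrays disagree with their titles (bleomycin or saline). Their summed leukocyte markers also lay apart, at 6587 on array a and 22014 on array b.

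**Figure D5:**
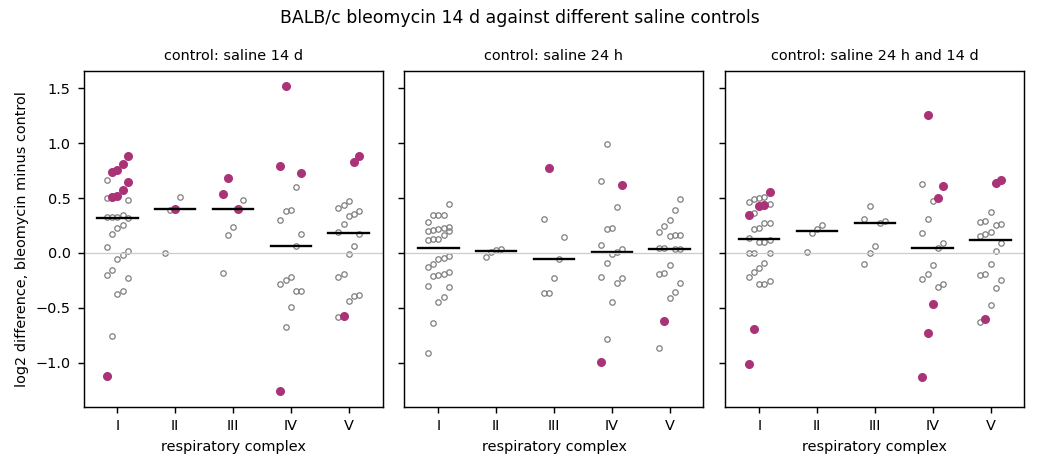
Log2 difference between BALB/c bleomycin 14 d and 3 choices of saline control (vertical axis) for each tested probe set of complexes I to V (horizontal axis). Filled points passed the test, open points did not, and bars are medians. The median of complex I is 0.32 against saline 14 d, 0.05 against saline 24 h and 0.12 against both together.

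Markers of lung cells moved in the same comparison. The summed alveolar type 2 markers read 6039 and 4385 on the BALB/c saline 14 d arrays and 1241 and 222 on the bleomycin arrays, the last the lowest of the 24 arrays, and the range of that sum reached 105099 on C57BL/6J saline 24 h array a. Sftpb, a surfactant protein, fell by 3.15, Ager of type 1 cells by 3.88 and Scgb1a1 of club cells by 3.68 on the log2 scale. Summed leukocyte markers went from 6319 and 5557 to 7575 and 8989, with the macrophage gene Cd68 higher by 0.93. BALB/c bleomycin 14 d array b also had the lowest maximum of all arrays, 6888. The part of these in the values of the complexes was not tested.

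The strain difference in the bleomycin effect at 14 d was called for 8 members (10%, beside 7.43%), 1 higher in C57BL/6J (background 2.55%) and 7 lower (background 4.88%), and it shares its arrays with both 14 d comparisons. Beside the Cox6b2 probe sets and Cox6a2 these were Ndufab1 (-1.38), Ndufb11 (-0.76), Ndufb2 (-0.70), the first Atp5d probe set (-0.81) and Atp5a1 (0.81). For Ndufab1 the C57BL/6J arrays read 2109 and 1822 after saline and 1597 and 1047 after bleomycin, and for Ndufb11 4016 and 3480.0 against 3534 and 3038. Neither passed within C57BL/6J at 14 d, and the Ndufb11 arrays overlapped. Atp5a1 read 5850.1 and 5232 after saline and 6599 and 6435 after bleomycin in C57BL/6J. With BALB/c saline 24 h as the control 4 members were called, and the median over members moved from -0.19 to -0.05, beside -0.10 and -0.13 for all tested probe sets. The same test at 24 h called 0 members in limma, beside 0.023% of all tested probe sets. At unadjusted p under 0.05 there were 7 higher and 1 lower of 80, beside 5.32% higher and 4.33% lower of all tested probe sets.

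Over time after bleomycin, without any saline array, few members outside Cox6b2 changed. In C57BL/6J 2 rose and 3 fell from 24 h to 14 d (6.25%, beside 8.67%), the risers being Atp5o, the stalk subunit OSCP (0.84, adjusted p = 0.037), and Ndufb8 (0.68, adjusted p = 0.0461). Both calls were lost without bleomycin 14 d array a (adjusted p = 0.363 and 0.41), without either bleomycin 24 h array, without the 6 doubted arrays, and with quantile normalization, no filter or array weights. Atp5o read 1626 and 1212 at 24 h and 3052 and 2204 at 14 d. In BALB/c 4 rose and 3 fell (8.75%, beside 7.66%). The risers were Cox7b (0.70), Ndufs3 (0.48), Cox5b (0.54) and Ndufa6 (0.63), and Atp5pb, a peripheral stalk subunit, fell by 0.70. Cox7b, a small complex IV subunit, read 1868 and 1734 at 24 h and 2773 and 3188 at 14 d, the latter the 2 highest of its 24 arrays. None of the 7 BALB/c calls held when bleomycin 14 d array b or bleomycin 24 h array b was left out, where the count was 0.

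Genes around the chain were counted from lists of names, in the bleomycin and saline comparisons as labelled. In BALB/c at 14 d 7.9% of all tested probe sets were higher and 5.4% lower, and in C57BL/6J at 14 d 3.11% and 4.32%. Of 19 tested genes of the tricarboxylic acid cycle and pyruvate dehydrogenase, 4 rose in BALB/c at 14 d: the dehydrogenase kinases Pdk3 (0.73) and Pdk4 (0.76), isocitrate dehydrogenase Idh2 (0.49) and citrate synthase Cs (0.42). In C57BL/6J at 14 d Pdk4 (0.94) and Pdk1 (0.60) rose and none fell. Idh2 went the other way in C57BL/6J at 24 h (-0.56) and 72 h (-0.49), times whose saline arrays are doubted, and Mdh2 rose there at 72 h (0.67). Of 9 genes for cytochrome c and the mobile carriers, the ubiquinone synthesis genes Coq9 (0.91) and Coq7 (0.77) rose in BALB/c at 14 d. Among 13 assembly factors the calls between bleomycin and saline were Uqcc2 in C57BL/6J at 72 h (0.54) and Cox18 in BALB/c at 72 h (0.49) and 14 d (-0.43). Of 12 fatty acid oxidation genes, Acaa2 (-1.18) and Acads (-0.77) fell in BALB/c at 14 d and Eci1 (-0.61) in C57BL/6J at 14 d.

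Regulators of mitochondrial genes gave 4 calls among 12 tested over the 6 bleomycin and saline comparisons. The mitochondrial polymerases Polg (1.08) and Polrmt (0.65) rose in BALB/c at 14 d, while in C57BL/6J at 14 d the hypoxia factor Hif1a rose (0.68) and Yy1 fell (-0.95). Of 14 glycolysis genes, 0 passed in BALB/c at 14 d, and in C57BL/6J at that time Pgam1 rose (0.74) and Eno3 (-0.78) and Ldhb (-1.05) fell. Ldhb is the lactate dehydrogenase form of heart and Eno3 the enolase of muscle. Of 10 mitochondrial carriers and uncoupling proteins, 0 passed in any of the 6 bleomycin and saline comparisons by limma. These lists are short, and most of their genes did not pass in any one comparison.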

How the data were processed

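The authors deposited 1 linear intensity for each probe set on each of 24 arrays of murine lung RNA, per the labels. The probe summary and scaling are not given in the sources used here. Trimmed means between the 2nd and 98th percentiles were 800 on every array, from which a scaling is inferred. Groups came from the titles. The 66 control probe sets were left out. Names came from the platform annotation (10833 probe sets with 1 name, 396 with several, 1193 with none), updated through RefSeq. A fit of 12 group means to log2(intensity + 92) was made with limma 3.58.1 in R 4.3.3 (trended variance, 12 residual degrees of freedom) on 8710 probe sets above the 40th percentile (226) on at least 2 arrays. Scripts were tested on simulated data. Named were the isoforms and their partners, core subunits, called members (at most 8 per comparison by p, others as stated), the 3 widest ranges and the 8 probe sets most like each isoform. The members and lists were chosen with earlier results of these data known. Precision is limited by 2 arrays a group. Letters did not pair arrays: of 66 pairs of groups, 14 had correlated deviations over 0.1 (median 0.01).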

Additional observations from a re-analysis of the deposited data

Results flagged for a closer look

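Members whose bleomycin effect differed by strain were called by the interaction term in limma. At 72 h this was Cox5b (0.80, higher in C57BL/6J). At 14 d Atp5a1 was higher in C57BL/6J (0.81), and lower were the Cox6b2 probe sets with the endings _i (-2.39) and _f (-0.93), Ndufab1 (-1.38), Cox6a2 (-0.98), an Atp5d probe set (-0.81), Ndufb11 (-0.76) and Ndufb2 (-0.70). The first of these Cox6b2 values passed in all alternative settings run, and the Cox5b value depended on the labels of the saline 72 h arrays.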

How the results depend on the processing

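With 2 arrays a group, the counts of called members often moved. The share of all tested probe sets called under each setting is not given here, except where stated above. Leaving out 1 array at a time gave 1 to 3 in C57BL/6J at 24 h, 1 to 5 at 72 h and 1 to 10 at 14 d (the 10 without bleomycin 14 d array b). It gave 0 to 2, 0 to 1 and 1 to 23 in BALB/c (the 1 without bleomycin 14 d array b), and 0 to 1 (the 1 without C57BL/6J saline 24 h array b), 0 to 1 and 1 to 11 for the strain differences at 24 h, 72 h and 14 d. It gave 1 to 15 between strains after bleomycin (1 without C57BL/6J bleomycin 14 d array a, 15 without b). From 24 h to 14 d it gave 2 to 16 in C57BL/6J (2 without bleomycin 24 h array b, 16 without bleomycin 14 d array b) and 0 to 11 in BALB/c (0 without either bleomycin array b).

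With the 6 doubted arrays left out the counts were 4 in C57BL/6J at 24 h, 2 and 11 in BALB/c at 24 h and 72 h, 4 for the strain difference at 72 h and 3 between strains after bleomycin. Exchanging the saline 72 h strain labels gave 2 in C57BL/6J and 0 in BALB/c at 72 h and 0 for their difference, where Cox5b turned to -0.0021. Array weights gave 8 in C57BL/6J at 72 h, 1 in C57BL/6J at 14 d, 3 in BALB/c at 72 h, 2 and 1 for the strain differences at 72 h and 14 d, and 3 and 2 for C57BL/6J and BALB/c from 24 h to 14 d. With 1 probe set per gene there was 1 in C57BL/6J at 24 h and 0 in BALB/c at 72 h. No filter gave 0 for the strain difference at 72 h and 3 for C57BL/6J over time, and no variance trend gave 0 at 72 h. Quantile normalization and the tripled offset each gave 11 for BALB/c over time. Chosen after seeing the data, BALB/c saline 24 h as the control gave 4 at 14 d and 4 for the strain difference, with Ndufb6 at -0.11 and Uqcr10 at -0.058. The causes were not tested where the setting does not itself change the arrays or probe sets compared.

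With the array letter as a replicate block the strain difference at 72 h had 0 calls (Cox5b adjusted p = 0.063), and Ndufb8 in C57BL/6J over time no longer passed (adjusted p = 0.0533). The block changed no other call of a named member. Of 1344 member calls refitted without 1 array, 1117 stayed past the threshold, 227 did not and 0 turned sign. Of 655 under other settings, 566 stayed, 86 did not and 3 turned sign, and these 3 are the values above. Dim members (18 of 98) could not be tested.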
